A study of Mus musculus with 10 samples.

Results

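The genes described here mark the walls of blood vessels and their surroundings in the cortex of mice that carry the genotype Atad3 nKO and of control littermates. They are 34 genes chosen by name from the gene tables, of 24972 genes listed. No measured value entered the rule of choice, though the choice was made with earlier results of these data known. They fall into 4 cell classes, with 20 endothelial genes, 5 pericyte genes, 5 smooth muscle genes and 4 fibroblast genes. The libraries were made from total RNA, depleted of ribosomal RNA, of cortex from 10 male animals of the mouse strain C57BL/6, at 2.5 months and perfused with cold PBS before dissection. One group was 5 animals of the genotype Atad3 nKO and the other was 5 control littermates, with 1 library per animal. What nKO stands for is not written out in the labels, nor are a driver of the deletion or the cells in which it takes place. The labels number the control libraries first and the nKO libraries after them, and where this was also the sequence of handling, it cannot be told apart from genotype.

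Brain capillaries are tubes of endothelial cells sealed by tight junctions and wrapped by pericytes, and larger vessels carry a coat of contractile smooth muscle. Endothelial cells of the brain hold the blood-brain barrier through junction proteins, selective transporters and low vesicle traffic, and VEGF and angiopoietin receptors on their surface govern vessel growth and stability. Fibroblasts lie in the meninges and around larger vessels, where they deposit collagen.

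In bulk cortex RNA these genes made up 0.108 to 0.119% of the estimated counts of a library, with 0.110 to 0.119% in controls and 0.108 to 0.116% in nKO. The libraries held 14812639 to 24161361 counts in all. Atad3a, the targeted gene and an ATPase of the mitochondrial inner membrane, stood at 26.6, 22.5, 24.5, 22.5 and 22.2 CPM in control 1 to 5 and at 11.5, 11.7, 14.4, 8.95 and 10.8 CPM in nKO 1 to 5, and its log2 fold change was -1.04 (SE 0.12; edgeR adjusted p = 0.00634). Every nKO library lay below every control library for it. The cortical identity of the tissue was visible in the markers of other cells, with summed levels of 1670.0 to 2406 TPM in controls and 2274 to 2538 TPM in nKO for excitatory neuron genes. On the first principal component, control 1 and nKO 4 were the ends, so where either is named below as the highest or lowest library of a gene, an estimate without it or without both is given. Unless TPM is named, such ranks are by CPM, which does not account for transcript length, and they differed in TPM for some genes. In RNA from a whole tissue, fewer cells of a type and less RNA per cell cannot be told apart.

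All 34 genes were listed with a level above 0 in every library. The levels, in TPM (a share of all transcripts that accounts for transcript length and so allows genes to be set side by side), covered a wide range. Among endothelial genes Bsg stood highest at 559 ± 41.7 TPM in controls and 549 ± 16.2 TPM in nKO (SD, n = 5 per group), and Vwf stood lowest at 4.67 ± 0.459 TPM in controls and 5.76 ± 0.786 TPM in nKO (SD, n = 5 per group). Ly6c1, at 97.8 ± 16.1 TPM in controls and 93.3 ± 12.5 TPM in nKO (SD, n = 5 per group), came second, and its libraries did not reach those of Bsg. Below it, Slco1c1, Slco1a4, Itm2a, Cldn5 and Ly6a followed with control means from 51.6 to 62.7 TPM, and these 5 overlapped between libraries. Rgs5 and Vtn led the pericyte genes, Tagln and Acta2 the smooth muscle genes, and Dcn and Col1a2 the fibroblast genes. The leading genes of the smooth muscle class stayed low. Tagln stood at 10.4 ± 2.28 TPM in controls and 10.8 ± 0.844 TPM in nKO (SD, n = 5 per group). Cnn1, a calponin of smooth muscle, was the lowest of the 34, between 0.188 and 0.637 TPM in controls and between 0.284 and 0.873 TPM in nKO, and it did not pass the filter on low counts. The summed level of a class overlapped between the groups in each of the 4 classes. It was 1086 to 1199 TPM in controls and 1132 to 1210.1 TPM in nKO for the endothelial genes, 198 to 239 TPM in controls and 216 to 241 TPM in nKO for the pericyte genes, 20.6 to 29.5 TPM in controls and 24.6 to 31.8 TPM in nKO for the smooth muscle genes, and 57.2 to 75.0 TPM in controls and 52.1 to 77.1 TPM in nKO for the fibroblast genes.

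**Figure D1:**
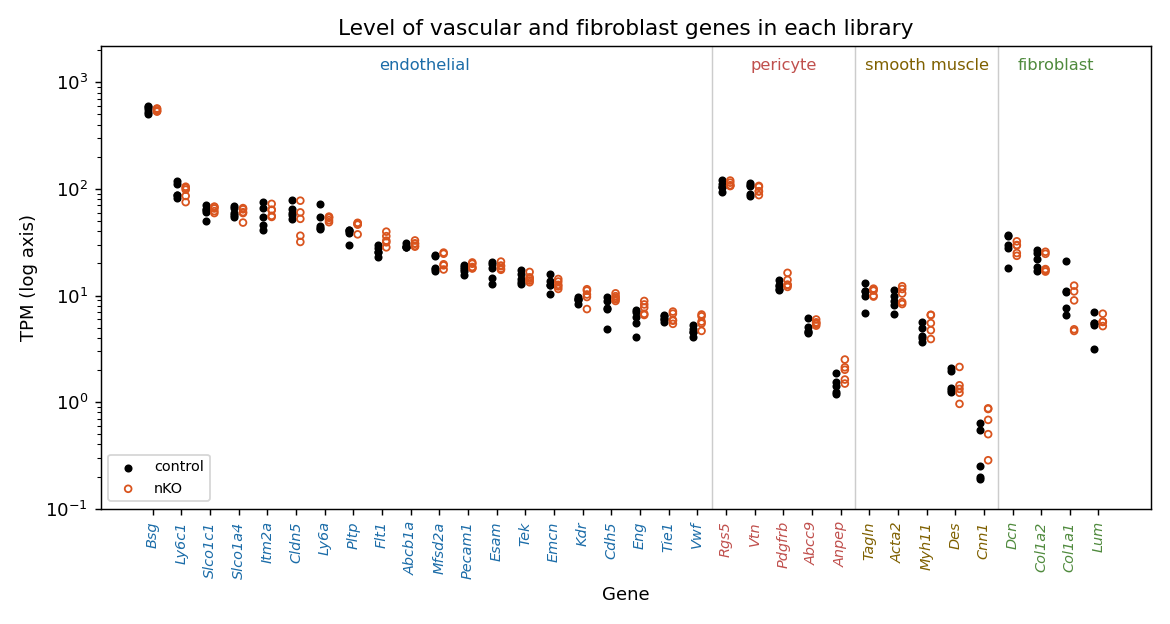
Level of each of the 34 genes in TPM on a log axis, with 1 point per library, filled for control and open for nKO, and genes ordered by mean level within each cell class. Bsg lies above all others, Cnn1 lies lowest, and the points of both groups overlap for every gene.

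Whether vascular genes differed between nKO and control cortex was examined with 1 edgeR quasi-likelihood fit over 14378 genes, of which 33 of the 34 were part. None of the 33 passed a 5% false discovery rate, against 2 of all 14378 genes (0.0139%). At an unadjusted p under 0.05 there was 1 gene, Flt1, with a higher level in nKO, where 812 of all genes (5.65%) reached that mark, 483 of them with a higher level in nKO (3.36%) and 329 with a lower one (2.29%). With DESeq2's Wald test, limma-voom and limma on log2 TPM none of the 33 passed 5% either, where 5 (0.0348%), 2 (0.0139%) and 2 (0.0139%) of all genes did. The members at an unadjusted p under 0.05 were 2 with DESeq2, 2 with limma-voom and 5 with limma on log2 TPM, against 5.83%, 6.23% and 11.1% of all genes with the same tests. DESeq2 and limma-voom added Cldn5, and limma on log2 TPM added Cdh5, Eng, Pltp and Vwf to Flt1. No gene had groups without overlap in CPM (counts scaled to library size by TMM), against 198 of all genes (1.38%). Point estimates were above 0 for 19 genes and below 0 for 14, with a median log2 fold change of 0.04, where all tested genes had 6866 above 0, 7512 below 0 and a median of -0.01.

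The precision of these values set the size of difference that could be seen. In log2 units the SE had a median of 0.14 for the 33 genes and 0.12 for all tested genes. For 26 of the 33 genes (78.8%) the 95% interval lay within a 1.5-fold difference in either direction, and for 31 (93.9%) within 2-fold. Over all tested genes these shares were 75.7% and 94.9%. The genes whose interval reached past 2-fold were Cldn5 and Col1a1, and those between the bounds were Cdh5, Eng, Anpep, Des and Col1a2.

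**Figure D2:**
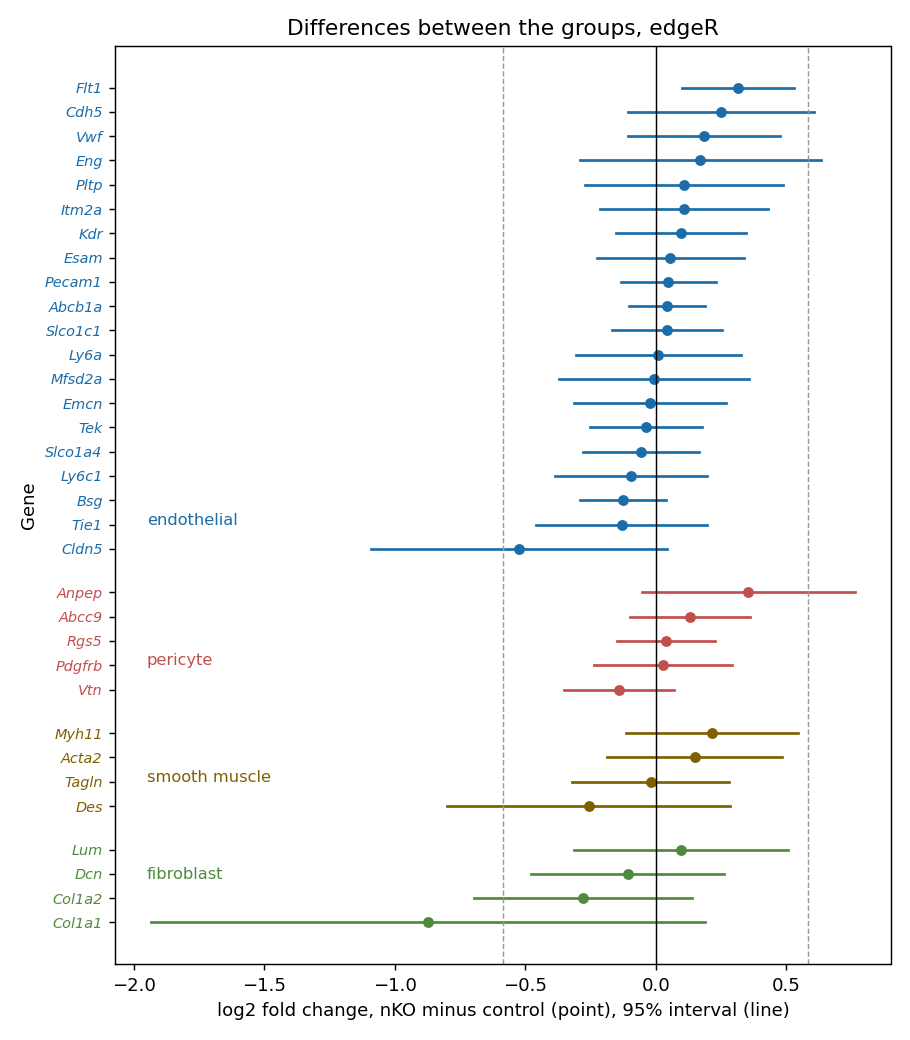
Log2 fold change of nKO against control for the 33 tested genes from edgeR, with points for the estimates and lines for 95% intervals, coloured by cell class. Dashed lines mark a 1.5-fold difference. The interval of Flt1 alone leaves 0 out, and those of Cldn5 and Col1a1 are the widest in their classes.

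Junction genes had 3 of 4 point estimates above 0, with a median of 0.05. Cldn5 (mm10 chromosome 16, 18776847 to 18778262) encodes claudin 5, the main claudin of the tight junctions that seal brain endothelium. It stood at 28.1, 13.4, 18.1, 13.3 and 16.8 CPM in control 1 to 5 and at 8.36, 9.82, 16.1, 9.81 and 18.5 CPM in nKO 1 to 5. In CPM the highest value was that of control 1. Below every control lay nKO 1, nKO 2 and nKO 4, while nKO 3 and nKO 5 lay among the controls. In TPM control 3 was highest at 79.4 TPM, and control 1 stood at 60.0 TPM. There nKO 4 at 52.42 TPM lay just above control 4 at 52.26 TPM, so only nKO 1 and nKO 2 lay below every control. The means were 17.9 ± 6.08 CPM in controls and 12.5 ± 4.48 CPM in nKO (SD, n = 5 per group), and the log2 fold change was -0.52 (95% interval -1.09 to 0.05, SE 0.26; edgeR adjusted p = 0.820). With 1 library left out the estimate ran from -0.70 (without nKO 5) to -0.31 (without control 1). Without control 1 and nKO 4 it was -0.24, and with offsets for effective length it was -0.34. In CPM the spread within both groups was large for this gene: its SE was 0.26, against 0.08 for Pecam1. In TPM the controls lay closer together, with means of 62.7 ± 10.3 TPM in controls and 51.7 ± 18.5 TPM in nKO (SD, n = 5 per group). Cdh5, the cadherin of endothelial adherens junctions, had a log2 fold change of 0.25 (SE 0.17), with control 3 at 6.60 CPM and the rest from 10.2 to 14.5 CPM. Pecam1, an adhesion molecule at contacts between endothelial cells, had 0.05 (SE 0.08), and Esam, an adhesion molecule of tight junctions, had 0.06 (SE 0.13).

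Among the 5 receptors the median log2 fold change was 0.10, with 3 above 0 and 2 below. Flt1 (mm10 chromosome 5, 147561604 to 147726438) encodes VEGF receptor 1, which binds VEGF tightly and limits how much reaches the signalling receptor Kdr. Its RNA has a long form, which encodes the receptor in the membrane, and a shorter form, which ends early and encodes a secreted protein that only binds VEGF. The files list 1 transcript of each form. NM_010228 encodes the membrane form, with 1333 codons, and NM_001363135 the soluble form, with 688 codons, counted without the stop in the matching GENCODE models. The sequences show where the forms part, since the values below depend on reads that tell them apart. Lower case gives the last 30 coding bases shared by both. Capitals give the 92 coding bases that only the soluble form has (chr5:147639133-147639224, GRCm38, minus strand) and the same number of bases that follow in the membrane form (chr5:147634432-147634523, minus strand).
Flt1 soluble: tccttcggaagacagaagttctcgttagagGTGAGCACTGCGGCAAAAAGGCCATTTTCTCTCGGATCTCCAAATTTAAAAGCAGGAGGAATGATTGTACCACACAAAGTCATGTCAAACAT
Flt1 membrane: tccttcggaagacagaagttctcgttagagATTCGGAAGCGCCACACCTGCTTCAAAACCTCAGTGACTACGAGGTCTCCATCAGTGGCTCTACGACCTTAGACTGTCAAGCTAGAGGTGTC

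For Flt1 as a whole, the level stood at 69.4, 73.6, 65.2, 71.0 and 57.8 CPM in control 1 to 5 and at 69.96, 78.6, 89.3, 98.5 and 82.7 CPM in nKO 1 to 5. Of the 5 nKO libraries, 4 lay above the highest control, and nKO 1 lay among the controls. The means were 67.4 ± 6.17 CPM in controls and 83.8 ± 10.8 CPM in nKO (SD, n = 5 per group), and the log2 fold change was 0.32 (95% interval 0.10 to 0.53, SE 0.10; edgeR adjusted p = 0.820), which did not pass the threshold. It kept an unadjusted p under 0.05 in each of 19 alternative analyses, with estimates from 0.24 without nKO 4 to 0.37 without nKO 1. Log2 fold changes increased with transcript length over all 14378 genes (Spearman 0.30, across genes that are not independent). With this trend removed Flt1, whose length averaged over its forms and the libraries was 6634 bases, had an estimate of 0.26.

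The membrane form of Flt1 (NM_010228) stood at 14.2, 14.5, 13.7, 15.2 and 12.8 TPM in control 1 to 5 and at 16.3, 17.9, 20.9, 22.2 and 17.9 TPM in nKO 1 to 5. Every nKO library lay above every control library. The log2 fold change of this transcript was 0.38 (95% interval 0.17 to 0.60, SE 0.09; edgeR adjusted p = 0.99998) in an edgeR fit over 22343 transcripts that was added after seeing the data. It did not pass 5%, and neither did any other transcript (0%), while 804 (3.6%) had an unadjusted p under 0.05. The soluble form (NM_001363135) stood at 11.4, 15.1, 12.2, 12.6 and 10.4 TPM in control 1 to 5 and at 11.99, 13.6, 15.1, 17.5 and 14.8 TPM in nKO 1 to 5. For this form nKO 1 and nKO 2 lay among the controls, and control 2 lay above nKO 1, nKO 2 and nKO 5, so the groups overlapped. Its log2 fold change was 0.21 (95% interval -0.08 to 0.50, SE 0.13; edgeR adjusted p = 0.99998). The membrane form took 53.4 ± 2.72% of Flt1 TPM in controls and 56.6 ± 1.33% in nKO (SD, n = 5 per group). The ranges of 48.9 to 55.5% and 54.7 to 58.0% overlapped, and control 2 had the lowest share. An exact two-sided permutation test of the share, chosen after its values were seen, gave p = 0.0317, where the smallest p of this design is 0.00794. The test of transcript usage over all genes did not call Flt1 (diffSpliceDGE, adjusted p = 0.99996 by Simes and 0.99969 by the F test per gene), so a difference in the balance of the forms was not detected there.

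**Figure D3:**
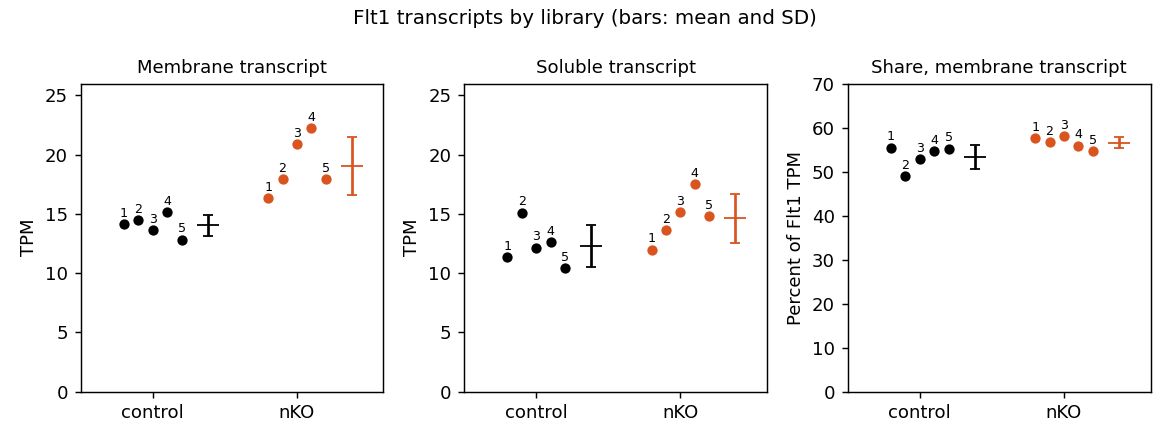
TPM of the membrane and the soluble transcript of Flt1 and the membrane transcript's share of Flt1 TPM in percent, with 1 numbered point per library and bars for mean and SD. The nKO points of the membrane transcript lie at 16.3 TPM and above, the control points at 15.2 TPM and below, while the soluble transcript overlaps.

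The other receptors had intervals that included 0. Kdr, VEGF receptor 2, showed 0.10 (SE 0.11) on the log2 scale, and its nKO libraries spanned the controls. In it nKO 1 at 16.5 CPM lay below all of them, while nKO 3, the highest at 25.5 CPM, nKO 4 and nKO 5 lay above. Tek, the receptor of angiopoietins, had -0.04 (SE 0.10). Tie1, a partner of Tek in the same pathway, had -0.13 (SE 0.15). Eng, a co-receptor for TGF-beta family ligands, had 0.17 (SE 0.21) and a wide interval, with control 1 at 9.91 CPM and control 3 at 3.77 CPM as its highest and lowest libraries. Its estimate was 0.39 without control 1, 0.026 without control 3 and 0.41 without control 1 and nKO 4. The difference between Flt1 and these receptors was not tested.

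Transport genes of the barrier had 2 of 5 point estimates above 0. Their log2 fold changes lay between -0.12 and 0.04 with a median of -0.01, and all 5 intervals lay within 1.5-fold. Abcb1a, the drug efflux pump P-glycoprotein, ranged from 56.2 to 60.9 CPM in controls and from 56.5 to 65.4 CPM in nKO, with a log2 fold change of 0.04 (SE 0.07). Its close relative Abcb1b stood at no more than 2.89 TPM, against 29.0 TPM for Abcb1a in controls. Slco1a4, a carrier of organic anions, had -0.06 (SE 0.10), and its relatives Slco1a1, Slco1a5 and Slco1a6 were at 0.134 TPM or less. Slco1c1, a carrier of thyroid hormone, had 0.04 (SE 0.10). Mfsd2a, which carries lysolipids with omega-3 fatty acids and restrains vesicle traffic, had -0.01 (SE 0.17).

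Bsg (mm10 chromosome 10, 79704358 to 79711979) encodes basigin, a companion of monocarboxylate transporters that other brain cells express too, so its level is not that of vessels alone. It stood at 249, 197, 217, 217 and 232 CPM in control 1 to 5 and at 203, 208, 219, 181 and 208 CPM in nKO 1 to 5. In CPM control 1 was highest and nKO 4 lowest, and the groups overlapped. In TPM this ranking did not hold, since control 1 was the lowest library and nKO 4 lay among the others. With limma on log2 TPM the estimate was -0.02. The means were 222 ± 19.5 CPM in controls and 204 ± 13.9 CPM in nKO (SD, n = 5 per group), with a log2 fold change of -0.12 (95% interval -0.29 to 0.04, SE 0.08; edgeR adjusted p = 0.835), or -0.05 without control 1 and nKO 4. The gene has a shorter form, NM_001077184, and a longer form, NM_009768, which holds an extra coding exon. Bsg was the most abundant of the 34 genes, and the sequences show where its forms differ. Lower case gives coding bases that both forms have. Capitals give the first 120 of the 348 bases of the exon found only in the longer form (chr10:79708697-79709044, GRCm38, plus strand).
Bsg longer: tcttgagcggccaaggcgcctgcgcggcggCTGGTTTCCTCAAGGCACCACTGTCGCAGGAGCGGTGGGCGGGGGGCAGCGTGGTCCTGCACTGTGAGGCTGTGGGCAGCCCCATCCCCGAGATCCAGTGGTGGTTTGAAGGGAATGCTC
Bsg shorter: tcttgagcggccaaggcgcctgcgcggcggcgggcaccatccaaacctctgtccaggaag
In cortex the shorter form held 99.2 ± 0.419% of Bsg TPM in controls and 99.2 ± 0.882% in nKO (SD, n = 5 per group). The longer form ranged from 2.10 to 6.89 TPM in controls and up to 11.9 TPM in nKO, and it was listed at 0 in nKO 4.

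The remaining endothelial genes had intervals that included 0. Ly6c1 and Ly6a encode small surface proteins anchored by a lipid, and had log2 fold changes of -0.09 (SE 0.13) and 0.01 (SE 0.15). The close relative Ly6c2 stood at no more than 0.426 TPM. Itm2a, a membrane protein, had 0.11 (SE 0.15), and Emcn, a sialomucin of capillaries and veins, had -0.02 (SE 0.13). Both secreted genes had point estimates above 0. Vwf, the clotting factor that catches platelets, had 0.19 (SE 0.13), and Pltp, which transfers phospholipids between lipoproteins, had 0.11 (SE 0.17). In Pltp, nKO 4 at 15.1 CPM stood apart from the other nKO libraries, of which the lowest was at 22.7 CPM, and without control 1 and nKO 4 its estimate was 0.34.

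In the pericyte class 4 of 5 point estimates were above 0, with a median of 0.04, or 0.13 when computed from log2 TPM, where all genes had a median of 0.05. Anpep (mm10 chromosome 7, 79821803 to 79848210), the surface enzyme aminopeptidase N, stood at 2.23, 2.06, 1.68, 2.63 and 1.65 CPM in control 1 to 5 and at 2.74, 2.07, 2.91, 3.11 and 2.19 CPM in nKO 1 to 5. Here nKO 1, nKO 3 and nKO 4 lay above every control, and nKO 2 and nKO 5 lay among them. The means were 2.05 ± 0.411 CPM in controls and 2.60 ± 0.454 CPM in nKO (SD, n = 5 per group), with a log2 fold change of 0.36 (95% interval -0.05 to 0.76, SE 0.19; edgeR adjusted p = 0.820). The gene had 32 to 58 counts per library, which limits how precisely its level is known.

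Vtn (mm10 chromosome 11, 78499120 to 78502325) encodes vitronectin, a matrix protein that brain pericytes secrete. It stood at 59.9, 50.1, 60.8, 61.3 and 66.4 CPM in control 1 to 5 and at 50.3, 55.0, 61.1, 45.9 and 58.7 CPM in nKO 1 to 5. In CPM the lowest library was nKO 4 and the highest was control 5, and the groups overlapped. In TPM control 1 was lowest, at 86.0 TPM, and nKO 4 stood at 95.3 TPM, among the others. With limma on log2 TPM the estimate was -0.04. The means were 59.7 ± 5.93 CPM in controls and 54.2 ± 6.19 CPM in nKO (SD, n = 5 per group), and the log2 fold change was -0.14 (95% interval -0.35 to 0.07, SE 0.10; edgeR adjusted p = 0.849), or -0.09 without nKO 4. Rgs5 (mm10 chromosome 1, 169655501 to 169695813), a regulator of G protein signalling that is high in pericytes, stood at 149, 191, 178, 162 and 158 CPM in control 1 to 5 and at 162, 159.8, 160.1, 196 and 184 CPM in nKO 1 to 5. Its highest libraries were nKO 4 and control 2 and its lowest was control 1. The means were 168 ± 16.8 CPM in controls and 172 ± 16.6 CPM in nKO (SD, n = 5 per group), with a log2 fold change of 0.04 (95% interval -0.15 to 0.23, SE 0.09; edgeR adjusted p = 0.962) that became -0.06 without control 1 and nKO 4. Pdgfrb, the receptor for the PDGF-B that endothelial cells release to hold pericytes, had 0.03 (SE 0.12), and Abcc9, a subunit of potassium channels gated by ATP, had 0.13 (SE 0.11). The intervals of Rgs5, Vtn, Pdgfrb and Abcc9 all lay within 1.5-fold.

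Of the 5 smooth muscle genes 4 were tested, with 2 above 0, 2 below and a median of 0.06. That median was 0.14 with no filter on low counts, which adds Cnn1, and -0.0037 without control 1 and nKO 4. Tagln (mm10 chromosome 9, 45929628 to 45936058), an actin-binding protein of smooth muscle, stood at 4.11, 5.29, 5.37, 4.92 and 6.54 CPM in control 1 to 5 and at 4.76, 4.97, 5.76, 5.09 and 5.33 CPM in nKO 1 to 5. Control 1 and control 5 were its lowest and highest libraries, with all nKO libraries between them. The means were 5.24 ± 0.878 CPM in controls and 5.18 ± 0.383 CPM in nKO (SD, n = 5 per group), and the log2 fold change was -0.02 (95% interval -0.32 to 0.28, SE 0.14; edgeR adjusted p = 0.989). Without control 1 it was -0.09, and its sign turned with log2 TPM (0.08), without control 5 (0.07) and with the length trend removed (0.04). Acta2, the actin of smooth muscle, had 0.15 (SE 0.15). Des (mm10 chromosome 1, 75360292 to 75368579), an intermediate filament protein of muscle, stood at 1.45, 1.70, 1.598, 1.17 and 1.13 CPM in control 1 to 5 and at 1.83, 1.06, 1.25, 0.697 and 1.09 CPM in nKO 1 to 5. Here nKO 1 was the highest of all libraries and nKO 4 the lowest. The means were 1.41 ± 0.254 CPM in controls and 1.19 ± 0.413 CPM in nKO (SD, n = 5 per group), with a log2 fold change of -0.26 (95% interval -0.80 to 0.28, SE 0.25; edgeR adjusted p = 0.876) from 13 to 39 counts per library. The estimate was -0.12 without nKO 4 and -0.47 without nKO 1.

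Myh11 (mm10 chromosome 16, 14194527 to 14292188), the myosin heavy chain of smooth muscle, stood at 11.96, 13.5, 11.9, 10.01 and 9.16 CPM in control 1 to 5 and at 13.5, 11.8, 16.3, 14.6 and 9.44 CPM in nKO 1 to 5. The highest libraries were nKO 3 and nKO 4 and the lowest were control 5 and nKO 5. The means were 11.3 ± 1.72 CPM in controls and 13.1 ± 2.64 CPM in nKO (SD, n = 5 per group), with a log2 fold change of 0.22 (95% interval -0.11 to 0.55, SE 0.15; edgeR adjusted p = 0.849), or 0.17 without nKO 4 and 0.12 without nKO 3. Its files list a form with a long tail, NM_001161775, and a form with a short tail, NM_013607, which differ at the end of the coding sequence. They are shown because the long-tail transcript had an unadjusted p under 0.05, as did the membrane form of Flt1. These were 2 of the 33 tested transcripts of genes with more than 1 listed transcript, where 3.6% of all transcripts reached that mark. Transcripts of the other genes were not looked up. Lower case gives the last 30 coding bases shared by both. Capitals give the coding bases that follow in one form only, 28 in the short tail (chr16:14198061-14198088, GRCm38, minus strand) and 130 in the long tail (chr16:14195055-14195184, minus strand).
Myh11 short tail: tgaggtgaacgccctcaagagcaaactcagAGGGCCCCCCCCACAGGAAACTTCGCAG
Myh11 long tail: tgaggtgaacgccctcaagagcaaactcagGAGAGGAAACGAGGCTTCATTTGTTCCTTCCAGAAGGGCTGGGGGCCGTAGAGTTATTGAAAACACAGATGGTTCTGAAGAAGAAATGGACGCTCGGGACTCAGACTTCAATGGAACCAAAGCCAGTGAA
The long-tail transcript stood at 3.28, 2.92, 2.56, 3.31 and 3.69 TPM in control 1 to 5 and at 4.24, 3.36, 6.60, 6.54 and 3.90 TPM in nKO 1 to 5. Its groups overlapped, since nKO 2 lay below control 5. The log2 fold change was 0.55 (95% interval 0.08 to 1.03, SE 0.21; edgeR adjusted p = 0.99998). The short-tail transcript stood between 0 and 2.67 TPM in controls and between 0 and 1.36 TPM in nKO. It was listed at 0 in 1 control and in 3 nKO libraries, and the long-tail form then held the whole level of the gene. The test of transcript usage did not call Myh11 (diffSpliceDGE, adjusted p = 0.99996 by Simes).

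Among the 4 fibroblast genes 3 point estimates were below 0 and the median was -0.19, against -0.01 over all genes. Col1a1 (mm10 chromosome 11, 94936224 to 94953042) encodes a chain of type I collagen, the main collagen of meninges and of the sheath of large vessels. It stood at 45.7, 12.5, 12.05, 8.08 and 9.52 CPM in control 1 to 5 and at 11.2, 6.09, 5.94, 11.8 and 12.7 CPM in nKO 1 to 5. Control 1 stood far above all other libraries, and the next highest was nKO 5. The means were 17.6 ± 15.8 CPM in controls and 9.56 ± 3.28 CPM in nKO (SD, n = 5 per group), with a log2 fold change of -0.87 (95% interval -1.93 to 0.19, SE 0.48; edgeR adjusted p = 0.826). Without control 1 the estimate was -0.14. Col1a2 (mm10 chromosome 6, 4505618 to 4541543), the other chain of type I collagen, stood at 51.0, 28.7, 34.2, 23.7 and 25.5 CPM in control 1 to 5 and at 24.5, 24.4, 23.4, 29.4 and 32.5 CPM in nKO 1 to 5. In CPM it too was highest in control 1. The means were 32.6 ± 11.04 CPM in controls and 26.9 ± 3.93 CPM in nKO (SD, n = 5 per group), with a log2 fold change of -0.28 (95% interval -0.70 to 0.14, SE 0.19; edgeR adjusted p = 0.848), or -0.06 without control 1. Leaving out that library brought the class median to -0.10.

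The proteoglycans did not share the high level of the collagens in control 1. Dcn (mm10 chromosome 10, 97479500 to 97518163), decorin, which binds collagen fibrils, stood at 12.8, 25.2, 20.7, 19.3 and 25.2 CPM in control 1 to 5 and at 15.9, 19.2, 16.7, 23.1 and 21.0 CPM in nKO 1 to 5. Control 1 was its lowest library and the groups overlapped. The means were 20.6 ± 5.11 CPM in controls and 19.2 ± 2.98 CPM in nKO (SD, n = 5 per group), and the log2 fold change was -0.11 (95% interval -0.48 to 0.26, SE 0.17; edgeR adjusted p = 0.933), or -0.32 without control 1 and nKO 4. Lum, lumican, a relative of decorin, was also lowest in control 1, at 2.42 CPM, against 3.72 to 5.29 CPM in the rest, and showed 0.10 (SE 0.19) on the log2 scale, or -0.03 without control 1. Both collagen chains are long, with gene lengths averaged over libraries of 5930 and 5222 bases, and the proteoglycans short, with 1879 and 2075 bases. In TPM control 1 was still the highest library of Col1a1, at 21.1 TPM, with nKO 4 next at 12.4 TPM. It was also still the lowest of Dcn (18.3 TPM) and Lum (3.16 TPM). For Col1a2 control 1 stood at 25.1 TPM, below control 3 at 26.7 TPM and nKO 4 at 25.7 TPM. The part of length in this split within control 1 was not tested.

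**Figure D4:**
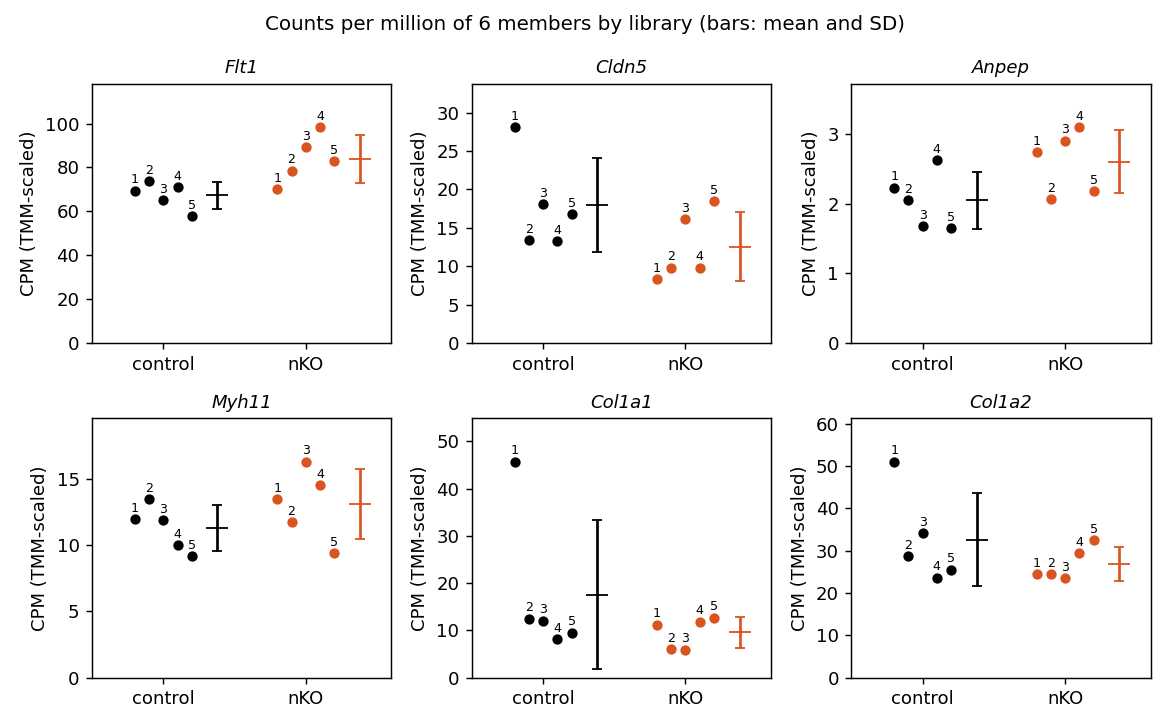
CPM of Flt1, Cldn5, Anpep, Myh11, Col1a1 and Col1a2 in each library, with 1 numbered point per library, bars for mean and SD, and axes that start at 0. In CPM control 1 is the highest point of Cldn5, Col1a1 and Col1a2, and 4 of 5 nKO points of Flt1 lie above all controls. In TPM control 1 is the highest for Col1a1 alone of these 3.

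The libraries that were high or low differed in part between the classes. The mean deviation of a class from its own mean over the 10 libraries, in log2 CPM, ran from -0.14 in control 3 to 0.12 in control 1 for endothelial genes, and from -0.13 in control 3 to 0.14 in nKO 3 for pericyte genes. By this measure endothelial and pericyte genes were thus both lowest in control 3. In summed TPM, where the highest genes weigh most, both were lowest in control 1, at 1086 and 198 TPM. In control 3 these sums were 1189 and 239 TPM. Smooth muscle genes were highest in nKO 3 (0.23) and lowest in nKO 5 (-0.16). Fibroblast genes were highest in control 1 (0.38) and lowest in nKO 3 (-0.36), the library in which pericyte and smooth muscle genes were highest. The mean in control 1 joined unlike genes, since 2 fibroblast genes, the collagens, were highest there and 2, the proteoglycans, were lowest. In summed TPM the fibroblast class was highest in nKO 4, at 77.1 TPM, and stood at 67.6 TPM in control 1. Whether the classes vary together over libraries was not tested. In log2 CPM of single genes, control 1 and control 3 held the extremes most often. Control 1 had the highest value of 8 genes and the lowest of 7, and control 3 the highest of 3 and the lowest of 9. By contrast nKO 2 and nKO 5 had the highest value of none of the 33 genes and the lowest of 1 each. Within each class the values of both groups overlapped.

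**Figure D5:**
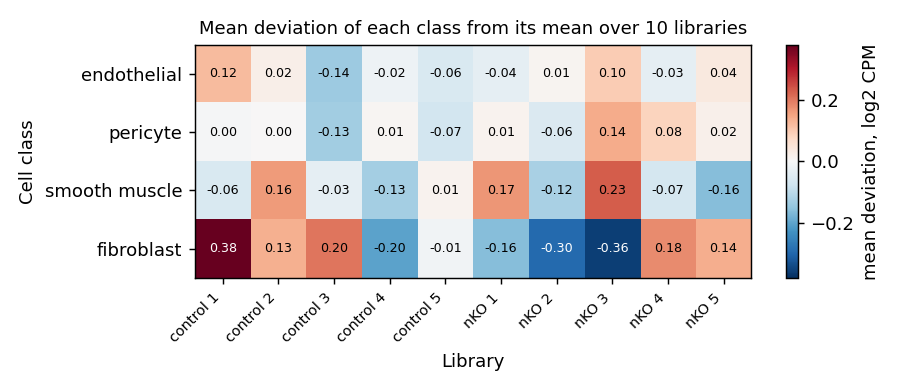
Mean deviation of each cell class in each library from the class's mean over the 10 libraries, in log2 CPM, with red for higher and blue for lower. Fibroblast genes span from -0.36 in nKO 3 to 0.38 in control 1, and endothelial genes from -0.14 in control 3 to 0.12 in control 1.

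Of the 34 genes 17 have more than 1 listed transcript, 49 transcripts in all, of which 33 passed the filter. None of the 33 passed 5% and 1, the membrane form of Flt1, had groups without overlap, against 213 of 22343 transcripts (0.953%). The test of transcript usage covered 13 of the genes and called none with either of its statistics (Simes and the gene-level F test), with 0 at an unadjusted p under 0.05 in both, where it called 1 of 4658 genes (0.0215%). Several genes with near-identical transcripts were divided unevenly between libraries. For Pecam1, which has 4 transcripts, NM_001032378 took 31.1 ± 5.46% in controls and 43.5 ± 14.6% in nKO (SD, n = 5 per group), and its log2 fold change was 0.53 (95% interval -0.00098 to 1.06, SE 0.24; edgeR adjusted p = 0.99998). For Tek, NM_013690 took 63.8 ± 12.96% in controls and 54.4 ± 5.67% in nKO (SD, n = 5 per group). Both shares overlapped between the groups. In Kdr and Abcc9 the leading transcript held means of at least 94.3% of the level.

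Further genes of the same biology, in 8 lists that hold none of the 34, were read from the same fit. None of their genes passed 5%. Of 19 vascular growth factors and receptors 10 were above 0 and the median was 0.06. In this list the Notch ligand Dll4 was at -0.75 (SE 0.27), with 1.29 to 3.68 CPM in controls and 0.965 to 1.72 CPM in nKO, and the Notch ligand Jag1 at 0.27 (SE 0.13). Without control 1 and nKO 4 the estimate for Dll4 was -0.43. Of 19 genes of the Wnt pathway that maintains the barrier 12 were above 0 (median 0.05). The transcription factor Lef1 was at 0.49 (SE 0.18) and the co-receptor Lrp6 at 0.18 (SE 0.08). Of 14 tested genes of tight and adherens junctions 11 were above 0 (median 0.03), with cingulin, Cgn, at -0.38 (SE 0.16) and occludin, Ocln, at 0.15 (SE 0.13). Of 15 tested barrier transporter genes 9 were above 0 (median 0.01), with the proteoglycan Spock2 at 0.22 (SE 0.13) and the efflux pump Abcc4 at 0.21 (SE 0.15).

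Of 16 basement membrane genes 10 were above 0 (median 0.03). Fibronectin, Fn1, was at 0.36 (SE 0.11), with 56.0 to 67.9 CPM in controls and 60.6 to 91.7 CPM in nKO, and the matrix protein Sparc at 0.20 (SE 0.10). Basement membrane genes summed to 203 to 233 TPM in controls and 243 to 256 TPM in nKO, ranges that do not overlap, though the median was near 0 and was -0.04 with the length trend removed. Barrier transporter genes came close to this, with 832 to 964.3 TPM in controls and 964.1 to 1051 TPM in nKO. On log2 TPM the median of all genes was itself above 0, at 0.05. How often such sums separate in other sets of genes was not examined. Of 8 tested genes of endothelial activation and leakage 5 were above 0 (median 0.07), with endothelin 1, Edn1, at 0.59 (SE 0.23) and Plvap, a protein of leaky endothelium, at 0.40 (SE 0.31). Of 15 other tested mural genes 8 were above 0 (median 0.01), with caldesmon, Cald1, at 0.26 (SE 0.13) and the myosin light chain kinase Mylk at 0.27 (SE 0.14). Of 18 other fibroblast and meningeal genes 6 were above 0 (median -0.08), with the collagen chain Col5a2 at -0.34 (SE 0.12) and the growth factor Igf2 at 0.20 (SE 0.10). All 8 medians lay between -0.08 and 0.07, and none of the genes passed 5% (smallest edgeR adjusted p = 0.820). Of the 124 tested genes of these lists 7 (5.65%) had an unadjusted p under 0.05, a share near that of all genes (5.65%). They were Lef1, Lrp6, Fn1 and Edn1, with higher levels in nKO, and Dll4, Cgn and Col5a2, with lower levels.

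Markers of other cells that the dissection could hold were read beside the vascular genes. Point estimates were above 0 for 6 of 10 excitatory neuron genes (median 0.03), 5 of 10 inhibitory neuron genes (median 0.00058), 1 of 10 astrocyte genes (median -0.07), 5 of 12 microglia genes (median -0.06) and 5 of 10 oligodendrocyte lineage genes (median 0.01). They were above 0 for 4 of 6 tested perivascular macrophage genes (median 0.19) and 2 of 4 tested choroid plexus and ependymal genes (median -0.06), whose summed levels were 19.8 to 25.1 TPM in controls and 21.5 to 35.9 TPM in nKO for the macrophage genes and 14.2 to 21.1 TPM in controls and 13.5 to 20.9 TPM in nKO for the choroid plexus and ependymal genes. The astrocyte genes, mostly below 0 as point estimates, summed to 2567 to 2715 TPM in controls and 2701 to 2857 TPM in nKO. These ranges overlapped, and the mean sum was higher in nKO. Blood cell genes, read as a sign of blood left in the vessels after perfusion, had 1 of 6 tested genes above 0 (median -0.86), and their sum was 173 to 532 TPM in controls and 109.7 to 315 TPM in nKO. Of these 6 genes 3 had an unadjusted p under 0.05 (5.65% of all genes), all with lower levels in nKO, and none passed 5% (smallest edgeR adjusted p = 0.820). Hbb-b2, which encodes a beta chain of adult haemoglobin, ranged from 1.58 to 6.74 CPM in controls and was at 1.16 CPM in nKO 1 and at 0 in the other nKO libraries, the only gene of the list without overlap between the groups (1.38% of all genes). Beta globin genes are near-identical, and Hbb-bt was listed at 0 in every control and at 6.56 to 20.8 TPM in nKO 2 to nKO 5, so the division of reads between them is uncertain. The calprotectin subunits S100a8 and S100a9, abundant in neutrophils, had log2 fold changes of -1.11 (SE 0.50) and -1.17 (SE 0.47), with groups that overlapped. Outside the blood list, 1 excitatory neuron, 2 inhibitory neuron and 1 astrocyte gene had an unadjusted p under 0.05 with higher levels in nKO. So did 1 choroid plexus and ependymal gene and 1 perivascular macrophage gene. With lower levels, 1 inhibitory neuron, 1 astrocyte and 1 microglia gene reached that mark, and no oligodendrocyte lineage gene reached it. None of these genes passed 5%. None of the markers in these 8 lists was at 0 in every library. Their part in the values of the vascular genes was not tested.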

How the data were processed

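RNA was measured in 10 cortex libraries, grouped by the genotype label into 5 control and 5 nKO. Per the submitters' processing notes the tools were bcl2fastq, Salmon and DESeq2 and the build was mm10. Their versions and the annotation release are not given in the sources used here. Per the file headers, the authors deposited estimated counts (reads assigned per gene and per transcript, which need not be whole) and TPM, scaled by effective length, for each library. A deposited table of a score for 22 genes holds none of the genes described and was not used. Libraries were stranded, with a fragmentation time of 6 minutes per the labels. Reads that match several transcripts are divided by an estimate, so the values of near-identical transcripts depend on that division.

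Estimated counts were rounded. Low genes were removed by filterByExpr (minimum count 10, minimum total 15), libraries were scaled by TMM, and groups were compared by the robust quasi-likelihood F test of edgeR 4.0.16 in R 4.3.3. The p-values of all 14378 genes were adjusted together by Benjamini-Hochberg, and the threshold was 5%. SE was taken as the log2 fold change over the root of F. Transcript usage was tested with diffSpliceDGE. A fit over single transcripts and a permutation test (scipy 1.17.1) of the Flt1 share were added after seeing the data. None of these accounts for the uncertainty of assigning reads to transcripts. Mean deviations used log2 CPM with a prior count of 2.

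Alternatives were other scalings and count filters, offsets for effective length, DESeq2 1.42.0, limma 3.58.1 (voom, and log2 TPM with a pseudocount of 0.1), removal of a lowess trend on transcript length (statsmodels 0.14.6, span 0.3), each library left out, and control 1 and nKO 4 left out together. The 34 genes, the 16 further lists and the choice of those 2 libraries were made with earlier results of these data known. Full statistics are given, by class, for the members with the smallest unadjusted p (3 endothelial, 2 in each other class) and the member with the highest mean TPM, and for the 2 genes with the smallest p of each related list. On simulated counts of 14288 genes, edgeR found 45 of 99 genes set to differ 1.5-fold, 84 of 99 set to differ 2-fold, and 6 others. On simulated counts of 4267 genes, the usage test recovered 23 of 41 genes whose leading transcripts, 2 to 4 times apart, were swapped. It recovered 49 of 59 with a larger ratio, and made 17 false calls. Both simulations held many changed genes, which makes the adjusted threshold easier to pass. In the data 2 of 14378 genes passed it with edgeR and 1 of 4658 with the usage test. The recovered shares may therefore overstate what could be found here.

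Gene positions are from RefSeq for GRCm38.p6, and coding sequences from GENCODE M21 for GRCm38, the assembly of mm10. By RefSeq accession 40464 of 42482 listed transcripts matched. Replicate numbers only name libraries.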

Additional observations from a re-analysis of the deposited data

Results flagged for a closer look

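In 3 of 68 groups of 5 libraries examined, 1 library stood apart by Dixon's ratio of gap to range (critical value 0.71), where chance flags about 1 group in 20. Col1a1 was at 45.7 CPM in control 1, and the next control was at 12.5 CPM. Pdgfrb was at 30.7 CPM in nKO 3, and the next nKO library was at 23.5 CPM. Pltp was at 15.1 CPM in nKO 4, and the next nKO library was at 22.7 CPM.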

How the results depend on the processing

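No paired analysis was possible because the labels give no litter or pairing and the replicate numbers only name libraries. The count of members past 5% was 0 under all alternatives. Of the values that answer a comparison, 147 were rated as unchanged and 2 as moved. The rating asked that a tested value keep its direction and its side of the threshold. It asked that a median move by less than the spread between libraries, and that a count stay within 1.5-fold. All genes past 5% were 5 with DESeq2's Wald test, 3 of them higher, and 2 to 3 with 1 library left out. The median of the pericyte genes was 0.13 with limma on log2 TPM. For the 33 members and the 16 named genes of the related lists, the estimate changed sign in 42 of 931 cases (a gene under an alternative) and kept it in 889. With 1 library left out the log2 fold changes that changed sign ranged as follows: Slco1c1 -0.021 to 0.10, Mfsd2a -0.088 to 0.12, Rgs5 -0.019 to 0.090, Lum -0.034 to 0.23, Tek -0.096 to 0.025, Esam -0.019 to 0.13, Ly6a -0.060 to 0.17, Pltp -0.0023 to 0.24, Emcn -0.092 to 0.069, Pdgfrb -0.078 to 0.10, Tagln -0.094 to 0.072, Slco1a4 -0.13 to 0.00027. Without control 1 and nKO 4 the values were Tie1 0.038, Slco1c1 -0.065, Mfsd2a 0.18, Itm2a -0.060, Rgs5 -0.061, Lum -0.14. With limma on log2 TPM they were Tie1 0.0074, Mfsd2a 0.082, Tagln 0.076, with limma-voom Mfsd2a 0.014, and with effective length offsets Ly6a -0.028, Mfsd2a 0.026, Tagln 0.0039. With the length trend removed, added for single genes after seeing the data, 4 of 33 members changed sign: Mfsd2a 0.037, Emcn 0.044, Pdgfrb -0.013, Tagln 0.042. The median of all genes was 0.050 with limma on log2 TPM, against -0.01. Of genes at an unadjusted p under 0.05 in some setting, Flt1 was so in 19 of 19 alternatives, Cldn5 in 6, Eng in 3, Vwf and Pltp in 2 each, and Cdh5, Abcc9, Anpep, Myh11 and Dcn in 1 each. The cause of these shifts was not tested. Depth limits the genes with few counts, such as Des and Anpep, and Cnn1 could not be tested.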
